A study of Anser cygnoides with 12 samples.

Results

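The comparison of a higher protein diet with a basal diet took 8 of the 12 libraries of a study of ileum from Yangzhou geese, a domestic goose breed. The libraries were chosen by the diet in their labels, and every gene in the table was a member. High protein geese received a diet with 21% crude protein and control geese a basal diet with 18%, with 4 libraries each. The labels give no age, sex or genotype. The other 4 libraries, from geese on the 21% diet with 0.3% lactulose, entered the gene filter, the scaling and the shared estimate of spread. They also entered the centring of the Z-linked gene medians and a comparison of libraries with the same replicate number. Poly(A) RNA was sequenced from whole tissue, so that fewer cells of a type and less RNA per cell cannot be told apart. Nothing in the labels says whether libraries came from separate birds, and p-values therefore measure the spread between these samples.

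The ileum is the last stretch of the small intestine. Its enterocytes take up the amino acids, peptides, bile acids and remaining lipids that the upper gut has left, and its wall holds macrophages, plasma cells, vessels, nerves and smooth muscle. Dietary protein reaches these cells as peptides and free amino acids, which brush border peptidases and transporters handle first and which enterocytes partly burn for their own energy. In birds nitrogen leaves mainly as urate, made by xanthine oxidoreductase at the end of purine breakdown.

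Libraries are named by the replicate number in their titles: high protein 1, 3, 4 and 5, and control 3, 4, 6 and 7. Values for a gene are always given in this order. Total counts ranged from 42073193 to 46148575 in high protein libraries and from 38706155 to 48251825 in control libraries. Control 3 stood apart from the other 7, with a median correlation of 0.957 to them against 0.971 to 0.978 for the others, and a scaling factor of 0.806. A score over 22 enterocyte genes was 1.02, -1.33, 0.21 and 0.25 in high protein libraries, against 0.63, 0.09, -1.46 and 0.60 in controls, so that high protein 3 and control 6 were low in enterocyte transcripts. The median of 694 Z-linked genes split the libraries into 2 low and 2 high on each diet, at -0.19, 0.20, -0.17 and 0.20 on the high protein diet, against 0.21, 0.20, -0.20 and -0.16 on the basal diet. FABP6, the ileal bile acid binding protein, was present throughout, at 3610.0, 572, 2528 and 1767 FPKM in high protein libraries, against 3904, 862, 578 and 812 FPKM in controls.

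Levels are given as FPKM, the authors' count per transcript length and library size, after a factor per library that puts libraries on the scale of the test. Counts were tested by quasi-likelihood in edgeR after TMM scaling, a correction for library makeup. Fold changes are log2 values of high protein over control with their standard errors. With Benjamini-Hochberg adjustment over 16075 genes, 0 genes passed 0.05 (0%), while DESeq2 called 8. The adjusted p was 0.0522 for LOC125183064, an uncharacterised RNA gene described with the processing limits, 0.341 for ISX, 0.595 for LOC106029782 and 1.0 for every other gene given below, so p-values named below are unadjusted and no gene is said to have changed. An unadjusted p under 0.05 was found for 510 genes (3.17%), of which 211 (1.31%) were higher and 299 (1.86%) lower on the high protein diet. That share is below the 0.05 that the threshold allows by chance. Over all genes the median log2 fold change was -0.02, and 7419 of the 16075 genes (46.2%) had a positive value.

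**Figure D1:**
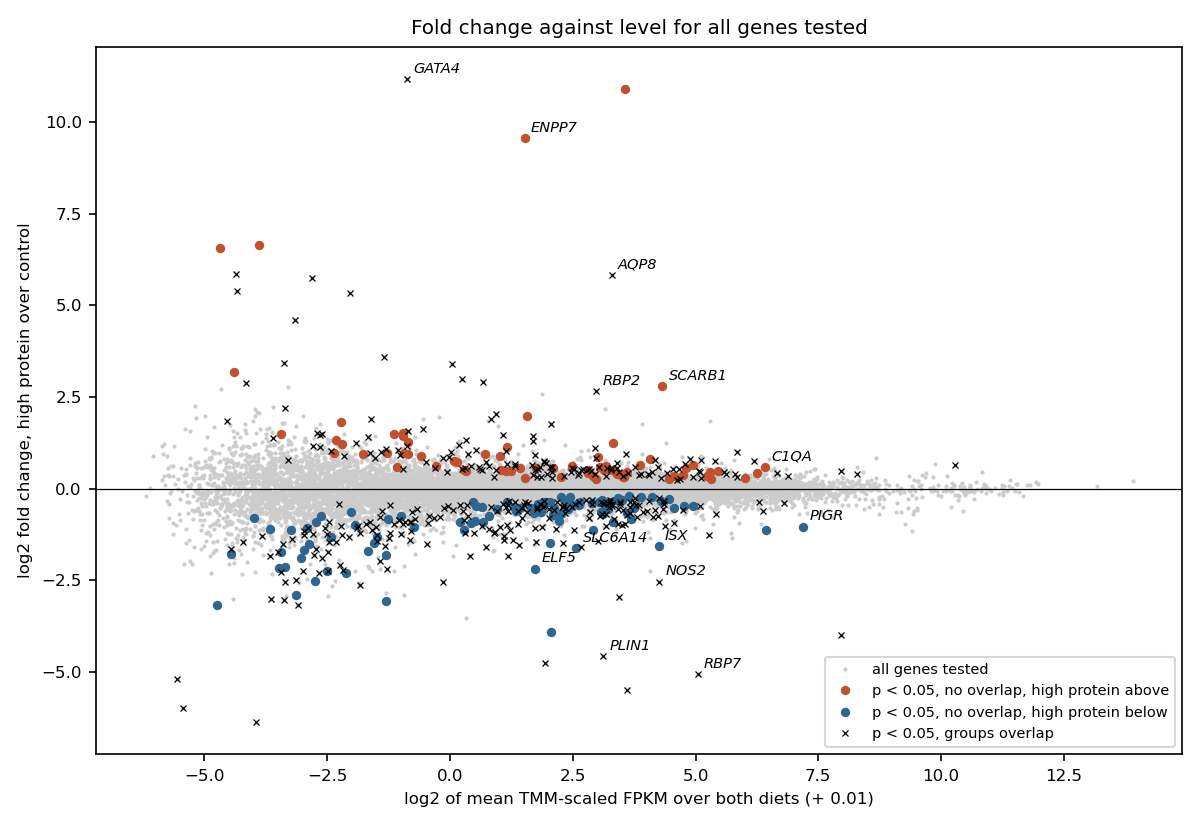
Log2 fold change of high protein over control (vertical axis) against log2 of the mean FPKM over both diets (horizontal axis), 1 point per gene. Coloured points mark the 69 higher and 97 lower genes with an unadjusted p under 0.05 whose libraries did not overlap, black crosses the other genes with such a p. Several of the widest differences, such as RBP7 and AQP8, are crosses.

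The 4 high protein libraries lay wholly above or below the 4 controls, in TMM-scaled CPM (counts relative to the library total), for 300 genes (1.87%), 124 of them higher (0.771%) and 176 lower (1.09%). Random ordering of 4 against 4 libraries would separate a larger share of genes. A lack of overlap is therefore used below only to describe the values, and not as support for a diet difference. Of the 300, 166 (1.03%) also had an unadjusted p under 0.05. Of these 166, 69 were higher (0.429%) and 97 lower (0.603%) on the high protein diet. Those with a gene symbol and at least 1 FPKM in the higher group numbered 39 higher and 56 lower. This separation depended on the scaling, since 123 of the 300 genes also failed to overlap in the FPKM as deposited. Of the 39 and 56, 14 and 28 did so.

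Which library a difference rested on was read by leaving out each of the 8 in turn. A difference was called carried by 1 library when leaving that library out took away more than 33.3% of the log2 fold change. This held for 54 of the 211 higher genes (25.6%) and 101 of the 299 lower genes (33.8%). High protein 1 carried 26 higher genes and high protein 3 carried 17. Control 3 carried 56 lower genes and control 7 carried 28. Of the 39 and 56 genes whose libraries did not overlap, 4 and 6 were carried by 1 library. Leaving out control 3 altogether gave 1022 genes at an unadjusted p under 0.05, 590 of them higher, and leaving out control 6 gave 892.

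**Figure D2:**
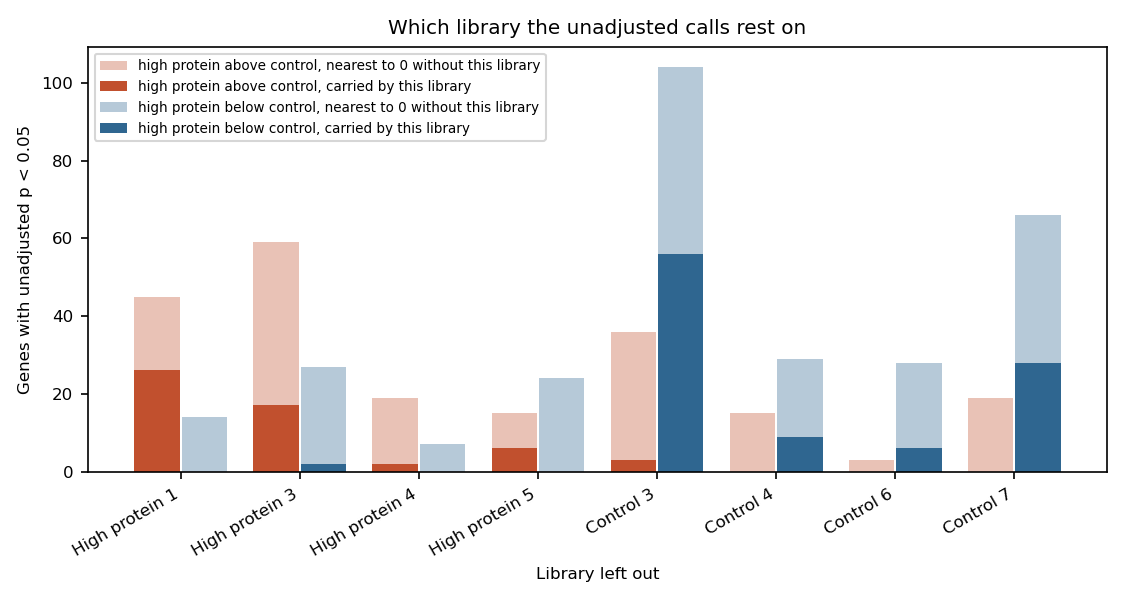
Number of genes with an unadjusted p under 0.05 (vertical axis), by the library whose omission brings the log2 fold change nearest to 0 (horizontal axis). Red bars count genes higher and blue bars genes lower on the high protein diet, and the solid part is the genes carried by that library. Control 3 has the tallest solid bar, with 56 lower genes.

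**Figure D3:**
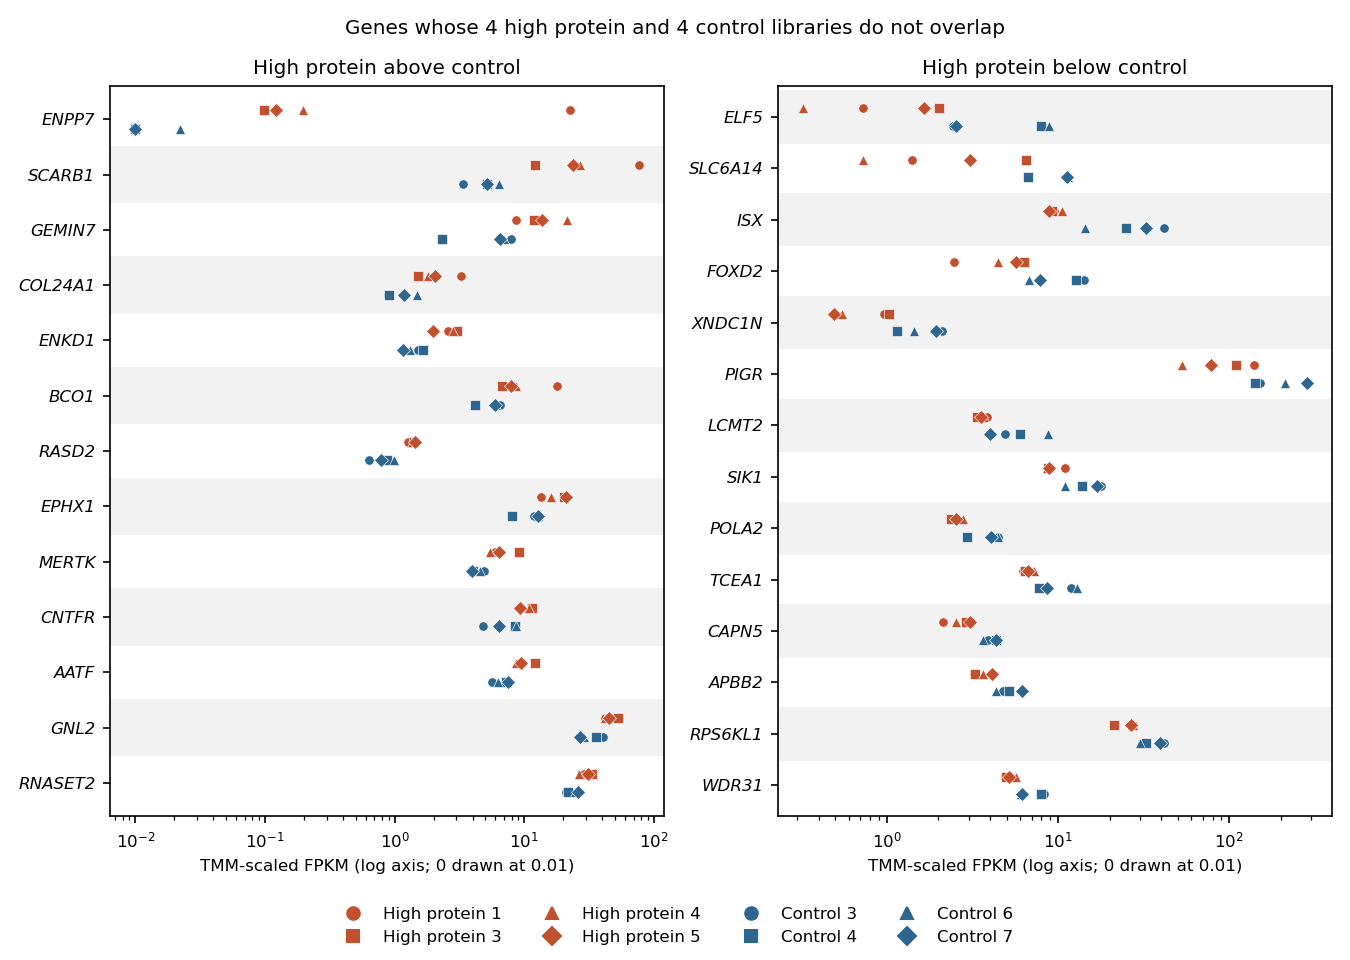
FPKM per library (log axis) of 27 genes whose groups did not overlap, high protein in red above control in blue, 1 symbol shape per library. In the left panel high protein 1 lies far to the right for ENPP7, SCARB1 and BCO1. In the right panel the controls of PIGR and SLC6A14 begin just above the highest high protein library.

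Several genes of macrophages and of the uptake of dead cells were above control in every high protein library. GAS6 and C1QC were picked after their values were seen, so their lack of overlap only describes them. MERTK, the receptor tyrosine kinase with which macrophages bind dying cells for engulfment, measured 5.97, 9.1, 5.49 and 6.4 FPKM in high protein libraries, against 4.91, 4.02, 4.6 and 3.98 FPKM in controls. All 4 high protein libraries were above all controls, with high protein 3 the highest, and the log2 fold change was 0.62 ± 0.18, or 0.44 without high protein 3. GAS6, the bridging ligand that links MERTK to dying cells, measured 24.2, 31.5, 24.1 and 26 FPKM on the high protein diet, against 19.9, 18.3, 23.8 and 20.6 FPKM on the basal diet. Its groups also stayed apart, narrowly between high protein 4 and control 6, with a log2 fold change of 0.35 ± 0.15. C1QA, C1QB and C1QC encode the chains of complement C1q, which macrophages secrete. The table placed them side by side on the minus strand of scaffold NW_025927702.1, at 178604 to 180915 (C1QB), 182533 to 184847 (C1QC) and 186110 to 188520 (C1QA). C1QC stood at 91.7, 94.9, 84.8 and 77.8 FPKM on the high protein diet, against 76.7, 54.2, 59.2 and 72 FPKM on the basal diet. Its lowest high protein library, number 5, was above its highest control, number 3, and the log2 fold change was 0.41 ± 0.18. C1QB did not separate, because control 3 reached 93.3 FPKM among high protein libraries of 81.3 to 103 FPKM. C1QA separated by more, with 109, 111, 93.5 and 97 FPKM in high protein libraries, against 71.1, 60.3, 65.5 and 75 FPKM in controls.

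Further genes of this kind had no overlap. P2RY13, GM2A, HPSE and PLBD2 were picked for this after their values were seen. No list of lysosome or engulfment genes was examined. P2RY13, an ADP receptor of microglia and macrophages in mammals, was at 9.74, 12.8, 11.5 and 12.2 FPKM in high protein libraries, against 6.66, 8.79, 8.1 and 9.0 FPKM in controls, a log2 fold change of 0.50 ± 0.16. Of the genes for proteins of the lysosome, GM2A, a cofactor for ganglioside breakdown, measured 32.1, 42.5, 38.8 and 36.6 FPKM on the high protein diet, against 18.3, 30.0, 31.4 and 16.5 FPKM on the basal diet. Controls 3 and 7 were far below controls 4 and 6, which came close to high protein 1, and the log2 fold change of 0.64 ± 0.21 was 0.50 without control 7. HPSE, which cuts heparan sulfate, had 14.7, 12.4, 12.3 and 12.9 FPKM on the high protein diet, against 8.64, 11.6, 10.9 and 8.56 FPKM on the basal diet. RNASET2, a lysosomal ribonuclease, had log2 fold change 0.36 ± 0.11, and PLBD2, a lysosomal phospholipase B-like protein, 0.35 ± 0.14. PLBD2 measured 40.4, 50.0, 35.1 and 42.9 FPKM in the 4 high protein libraries, against 29.7, 34.6, 34.9 and 32.9 FPKM in the controls, with high protein 4 just above control 6.

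Of 33 macrophage and dendritic cell genes, 24 were tested and 23 of them had a positive log2 fold change, against 46.2% of all genes. Their median was 0.22, against -0.02 over all genes, and stayed between 0.21 and 0.30 with each library left out. At an unadjusted p under 0.05, C1QA, C1QC, MERTK and CYBB were higher and LY86 lower, where 3.17% of all genes had such a p. C1QA, among these, was known from an earlier account of these data when the list was chosen. CYBB, the catalytic subunit of the phagocyte oxidase, measured 8.74, 9.6, 9.89 and 6.97 FPKM in high protein libraries, against 4.96, 7.22, 6.44 and 8.18 FPKM in controls, with controls 4 and 7 inside the high protein range. LY86, a partner of a Toll-like receptor homologue, measured 4.82, 7.91, 4.37 and 8.72 FPKM on the high protein diet, against 11.5, 7.24, 7.38 and 16 FPKM on the basal diet, and its log2 fold change of -0.71 ± 0.29 was -0.43 without control 7. CSF1R, the receptor that defines the lineage, was at 20.7, 19.8, 15 and 16.2 FPKM in high protein libraries, against 12.2, 15.5, 15.9 and 21.3 FPKM in controls, which overlapped (log2 fold change 0.14 ± 0.18). The list's summed level ranged from 3962 to 5050 FPKM on the high protein diet, against 3450 to 4753 FPKM on the basal diet. More macrophages and more transcripts per macrophage cannot be told apart here.

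Smooth muscle and vessel genes also lay mostly above control, without separation of the libraries. Of 25 smooth muscle and pacemaker genes tested, 24 had a positive log2 fold change, against 46.2% of all genes. The list median was 0.36 and ranged from 0.22 without high protein 5 to 0.59 without control 6. LMOD1, which nucleates actin filaments in smooth muscle, was the only member higher at an unadjusted p under 0.05, against 1.31% of all genes. It measured 19.5, 29.3, 17.3 and 24.1 FPKM in high protein libraries, against 10.5, 14, 20.9 and 14.2 FPKM in controls. MYH11, the smooth muscle myosin heavy chain, was at 333, 376, 294 and 499 FPKM on the high protein diet, against 136, 222, 426 and 211 FPKM on the basal diet, with control 6 above 3 of the 4 high protein libraries. Its log2 fold change was 0.59 ± 0.36. HSPB7, a small heat shock protein of muscle, ran the other way and did not overlap, at 7.65, 7.03, 6.35 and 8.72 FPKM in high protein libraries, against 11.3, 13.4, 8.8 and 9.09 FPKM in controls. The score of this list was -0.02, 0.23, -0.06 and 0.56 in high protein libraries, against -0.46, -0.27, 0.34 and -0.31 in controls. High protein 5 and control 6 were thus the muscle-rich libraries of their groups, and the part of muscle content in other differences was not tested.

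Among 22 endothelial genes tested, 18 had a positive log2 fold change, against 46.2% of all genes, and the median was 0.24. Leaving out high protein 3 brought it to 0.03 and leaving out control 6 to 0.47. PLVAP, the diaphragm protein of fenestrated capillaries, measured 58.6, 69.1, 42.5 and 41.1 FPKM in high protein libraries, against 20.8, 32.4, 43.3 and 29.8 FPKM in controls, and control 6 alone overlapped the high protein range. FLT1, a receptor for vascular endothelial growth factor, measured 5.81, 4.9, 2.95 and 3.61 FPKM on the high protein diet, against 1.31, 2.19, 3.67 and 2.01 FPKM on the basal diet, with a log2 fold change of 0.91 ± 0.30. TEK, the angiopoietin receptor, rested on high protein 3, and its log2 fold change of 0.74 ± 0.32 became 0.38 without it. NDNF, a secreted factor of neurons and vessels, did not overlap, at 11.1, 14.1, 11 and 11.6 FPKM in high protein libraries, against 9.77, 9.59, 9.45 and 7.67 FPKM in controls. VEGFD, a growth factor for lymphatic vessels, was below control in every library, at 5.95, 5.9, 7.88 and 6.81 FPKM on the high protein diet, against 14.8, 8.67, 9.3 and 9.99 FPKM on the basal diet, and COL24A1, a fibrillar collagen chain, above it in every library, with a log2 fold change of 0.95 ± 0.28. Collagen and matrix genes as a list had a median of 0.11 over 37 genes, and -0.07 without control 3, whose score of -0.95 was the lowest of the 8.

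Amino acid transporters lay on both sides as a list. Of 24 tested, 11 had a positive log2 fold change, and the median was -0.02. SLC6A14, an importer of neutral and basic amino acids, was the only member with an unadjusted p under 0.05, which 3.17% of all genes had. It measured 1.41, 6.48, 0.727 and 3.04 FPKM in high protein libraries, against 6.64, 6.64, 11.4 and 11.3 FPKM in controls. The groups met at high protein 3 and controls 3 and 4 without overlapping, and the log2 fold change was -1.62 ± 0.60. SLC7A9, the transport subunit of the exchanger for cystine and basic amino acids, was at 7.53, 14.5, 37 and 51.1 FPKM on the high protein diet, against 75.6, 45.9, 15.1 and 78.8 FPKM on the basal diet. Its heavy subunit SLC3A1 was at 11.9, 4.99, 15.1 and 17.6 FPKM in high protein libraries, against 32.9, 19.4, 6.64 and 23.2 FPKM in controls, and SLC6A20, which carries proline, at 14.5, 7.3, 17.6 and 28.1 FPKM on the high protein diet, against 34.7, 38.2, 9.6 and 39.5 FPKM on the basal diet. In all 3, control 6 lay among the high protein values, as did control 4 for SLC7A9, so that the groups overlapped for each. SLC15A1, the oligopeptide transporter and the most abundant member, was at 663, 154, 438 and 268 FPKM in high protein libraries, against 589, 364, 119 and 390.3 FPKM in controls. Its log2 fold change was 0.06 ± 0.68, and its range within each diet was wide in the same libraries as the enterocyte score, of which it is a member. Peptidases were alike in this, with 6 of 15 positive, a median of -0.20 and 0 members at an unadjusted p under 0.05. ANPEP, an aminopeptidase of the brush border, had a log2 fold change of -0.59 ± 0.56. SLC6A19, the main neutral amino acid transporter of the brush border, was not found by name in the table and has no value here.

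Enzymes of amino acid breakdown gave 5 of 33 genes with an unadjusted p under 0.05, 4 higher and 1 lower, around a list median of -0.03. The share over all genes was 3.17%. HAAO, an enzyme of the kynurenine route of tryptophan breakdown, did not overlap, at 4.31, 6.14, 5.0 and 4.81 FPKM in high protein libraries, against 3.79, 3.68, 3.39 and 3.0 FPKM in controls. The log2 fold change was 0.55 ± 0.18, and the next enzymes up the same route, KMO and KYNU, had 0.02 ± 0.41 and -0.10 ± 0.40. ALDH4A1, which completes proline breakdown to glutamate, measured 15.7, 16.9, 12 and 20.2 FPKM on the high protein diet, against 11.9, 12.7, 14.4 and 11.5 FPKM on the basal diet, with high protein 4 among the controls. GPT2, the mitochondrial alanine transaminase, measured 2.45, 4.35, 5.7 and 3.06 FPKM in high protein libraries, against 1.99, 2.01, 3.45 and 2.43 FPKM in controls. Only high protein 3 and 4 were above all controls, and the log2 fold change of 0.65 ± 0.28 was 0.41 without high protein 4. GLDC, the decarboxylase of the glycine cleavage system, rested on high protein 1, with 8.46 FPKM there and at most 2.36 FPKM elsewhere. ASS1, the argininosuccinate synthase that begins arginine regeneration from citrulline, was the lower gene, at 8.2, 15.1, 17.7 and 23.1 FPKM on the high protein diet, against 31.7, 13.1, 23.4 and 55.6 FPKM on the basal diet, and control 7 was its highest library. GLUD1, the glutamate dehydrogenase, and GLUL, the glutamine synthetase, had log2 fold changes of 0.26 ± 0.20 and 0.10 ± 0.45. High protein 1 was the highest library for both, and without it they were 0.10 and -0.25.

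A pair of low-level genes of methyl and polyamine metabolism were below control in every library, both chosen after their values were seen. MAT1A, a methionine adenosyltransferase, measured 2.82, 3.01, 3.09 and 2.84 FPKM in high protein libraries, against 4.41, 3.85, 4.02 and 3.55 FPKM in controls. AZIN2, an antizyme inhibitor that spares ornithine decarboxylase, measured 2.48, 3.4, 2.61 and 2.7 FPKM on the high protein diet, against 5.51, 3.66, 3.63 and 4.68 FPKM on the basal diet. ODC1 itself, ornithine decarboxylase, had a log2 fold change of -0.11 ± 0.13.

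The purine and urate genes were near the median of all genes. Of 27 tested, 17 had a positive log2 fold change, 0 reached an unadjusted p of 0.05, and the median was 0.05. XDH, xanthine oxidoreductase, measured 20.2, 6.81, 12.8 and 14.1 FPKM in high protein libraries, against 14.5, 14.3, 9.55 and 22.9 FPKM in controls. The groups overlapped, with high protein 3 below and control 7 above all libraries of the other diet, at a log2 fold change of -0.18 ± 0.42. The urate carriers SLC2A9 and ABCG2 had -0.08 ± 0.31 and 0.38 ± 0.58, and ABCG2 came to -0.02 without high protein 1.

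The tRNA synthetases and the amino acid response gave 13 of 32 positive values and a median of -0.01. The members with an unadjusted p under 0.05 were DDIT4 and STC2, both higher, where 3.17% of all genes had such a p. DDIT4, an inhibitor of mTORC1 made under stress, measured 90.6, 110.0, 67.1 and 98.1 FPKM in high protein libraries, against 50.3, 58.8, 71.6 and 35 FPKM in controls, and only control 6 reached the high protein range. STC2, a secreted glycoprotein of the same stress response, was carried by high protein 3, at 3.71 FPKM, and its log2 fold change of 1.06 ± 0.48 was 0.55 without it. ASNS, asparagine synthetase and a classical target of this response, was at 10.7, 11.4, 16.5 and 14.2 FPKM on the high protein diet, against 12, 9.81, 16.7 and 10.5 FPKM on the basal diet, a log2 fold change of 0.11 ± 0.19.

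Carotenoid and retinoid genes held 6 of 19 tested genes with an unadjusted p under 0.05, 4 higher and 2 lower, with a median of 0.05. Over all genes 3.17% had such a p. ISX and SCARB1, among the 6, were known from an earlier account of these data when the list was chosen. BCO1, which splits beta-carotene into retinal, measured 18.1, 6.79, 8.61 and 7.93 FPKM in high protein libraries, against 6.55, 4.18, 6.11 and 5.98 FPKM in controls. All high protein libraries were above all controls, but high protein 1 was far above the other 3, and without it the log2 fold change of 0.86 ± 0.31 was 0.45. In the table BCO1 spans 514479 to 578493 on the plus strand of scaffold NW_025927738.1. ISX, the homeobox repressor of BCO1 and SCARB1 in the mammalian gut, was lower in all 4 high protein libraries, at 9.47, 9.19, 10.6 and 8.87 FPKM on the high protein diet, against 41.6, 25, 14.4 and 32.8 FPKM on the basal diet. SCARB1, the receptor through which carotenoids and cholesterol enter, was higher in all 4, at 77.1, 12.1, 27 and 23.9 FPKM in high protein libraries, against 3.38, 5.14, 6.37 and 5.13 FPKM in controls. Leaving out high protein 1 left SCARB1 at 2.07 on the log2 scale, and that library took away a larger share of the BCO1 difference. ALDH1A3, a retinal dehydrogenase, had a log2 fold change of 0.53 ± 0.24, and ALDH1A1, a related enzyme, 0.57 ± 0.39. RBP2 and RBP7, retinol binding proteins inside cells, each rested on 1 library. RBP2 measured 46.9, 0.695, 4.4 and 2.32 FPKM on the high protein diet, against 1.6, 1.03, 0.857 and 5.09 FPKM on the basal diet, and its log2 fold change of 2.66 ± 1.06 was 0.20 without high protein 1. RBP7 measured 2.13, 2.05, 1.88 and 1.47 FPKM in high protein libraries, against 250.2, 0.455, 2.07 and 4.07 FPKM in controls, and without control 3 its log2 fold change of -5.08 ± 1.54 was -0.22.

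High protein 1 alone carried a set of genes of the upper small intestine and of lipid uptake. GATA4, which specifies the upper small intestine, had 1166 counts there, against 0, 4 and 19 in high protein 3, 4 and 5 and 0 in each control. About 4 counts seem to stand for 1 read pair in these data. LCT, lactase, measured 7.14, 0.162, 0.608 and 0.459 FPKM in high protein libraries, against 0.269, 0.171, 0.182 and 0.43 FPKM in controls. ONECUT2, another proximal factor, had 0.894, 0, 0.144 and 0 FPKM in high protein libraries, against 0, 0, 0 and 0.0173 FPKM in controls. AQP8, a water channel, showed the same shape, with 72.5, 0.288, 1.83 and 2.47 FPKM on the high protein diet, against 0.262, 0.494, 0 and 0.559 FPKM on the basal diet. ENPP7, the intestinal alkaline sphingomyelinase, was the one gene of this set without overlap, at 22.5, 0.099, 0.196 and 0.122 FPKM in high protein libraries, against 0, 0, 0.0223 and 0 FPKM in controls. Its value in high protein 3, 4 and 5 was at most 0.196 FPKM, and in control 6 it came from 4 counts. NPC1L1, the cholesterol importer, measured 7.99, 1.15, 1.27 and 0.819 FPKM on the high protein diet, against 0.70, 0.638, 0.831 and 0.814 FPKM on the basal diet, and its log2 fold change of 1.91 ± 0.61 was 0.53 without high protein 1. FGF19 and CUBN, the bile acid hormone and the receptor for vitamin B12 bound to intrinsic factor, were highest in the same library, at 5.11 and 6.69 FPKM, with other libraries up to 1.72 and 2.2 FPKM. The proximal marker list scored 1.18 in high protein 1, against at most 0.22 in the other 7 libraries, and the distal marker list scored 0.58 there, also the highest. Of 15 proximal markers tested, 8 had a positive log2 fold change, and the median was 0.01. Their summed level in high protein 1, 278 FPKM, was below high protein 5 (320 FPKM), control 3 (293 FPKM) and control 4 (280 FPKM). The score weighs scarce members as much as abundant ones. Where along the ileum each sample was cut is not in the labels, and its part in these genes was not tested.

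Lipid absorption genes depended on this library too, and about as much on control 6. Of 33 tested, 25 had a positive log2 fold change, against 46.2% of all genes. The list median was 0.20, but it was 0.00 without high protein 1, 0.03 without control 6 and 0.29 without high protein 3. APOA4, an apolipoprotein of chylomicrons, measured 86.8, 2.93, 48.3 and 107 FPKM in high protein libraries, against 22.1, 21.5, 1.79 and 22.4 FPKM in controls, with high protein 1, 4 and 5 above all controls and high protein 3 below 3 of them. The list score was 0.79, -0.77, 0.17 and 0.23 in high protein libraries, against 0.48, -0.07, -0.95 and 0.13 in controls, and its low values were in the 2 libraries with the lowest enterocyte scores. With the enterocyte score as a covariate the list median was 0.12. Members such as APOA4 are also in the enterocyte list, so the scores share genes and agree in part by construction. With the replicate number as a block the median was -0.31, a setting in which high protein 1 and control 7 drop out of the contrast. Of the bile acid genes, NR1H4, the bile acid receptor, measured 24.9, 23.7, 40.3 and 41.7 FPKM on the high protein diet, against 86, 46.4, 26.9 and 52.5 FPKM on the basal diet, highest in control 3, and ABCC3, a basolateral exporter, 11.3, 10.4, 12.9 and 12.3 FPKM in high protein libraries, against 15.6, 14.9, 12 and 17.8 FPKM in controls. SLC10A2, the ileal bile acid importer, ranged within each diet by more than between them, at 20.3, 7.7, 51.7 and 46.9 FPKM on the high protein diet, against 108, 49.2, 6.13 and 131 FPKM on the basal diet.

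**Figure D4:**
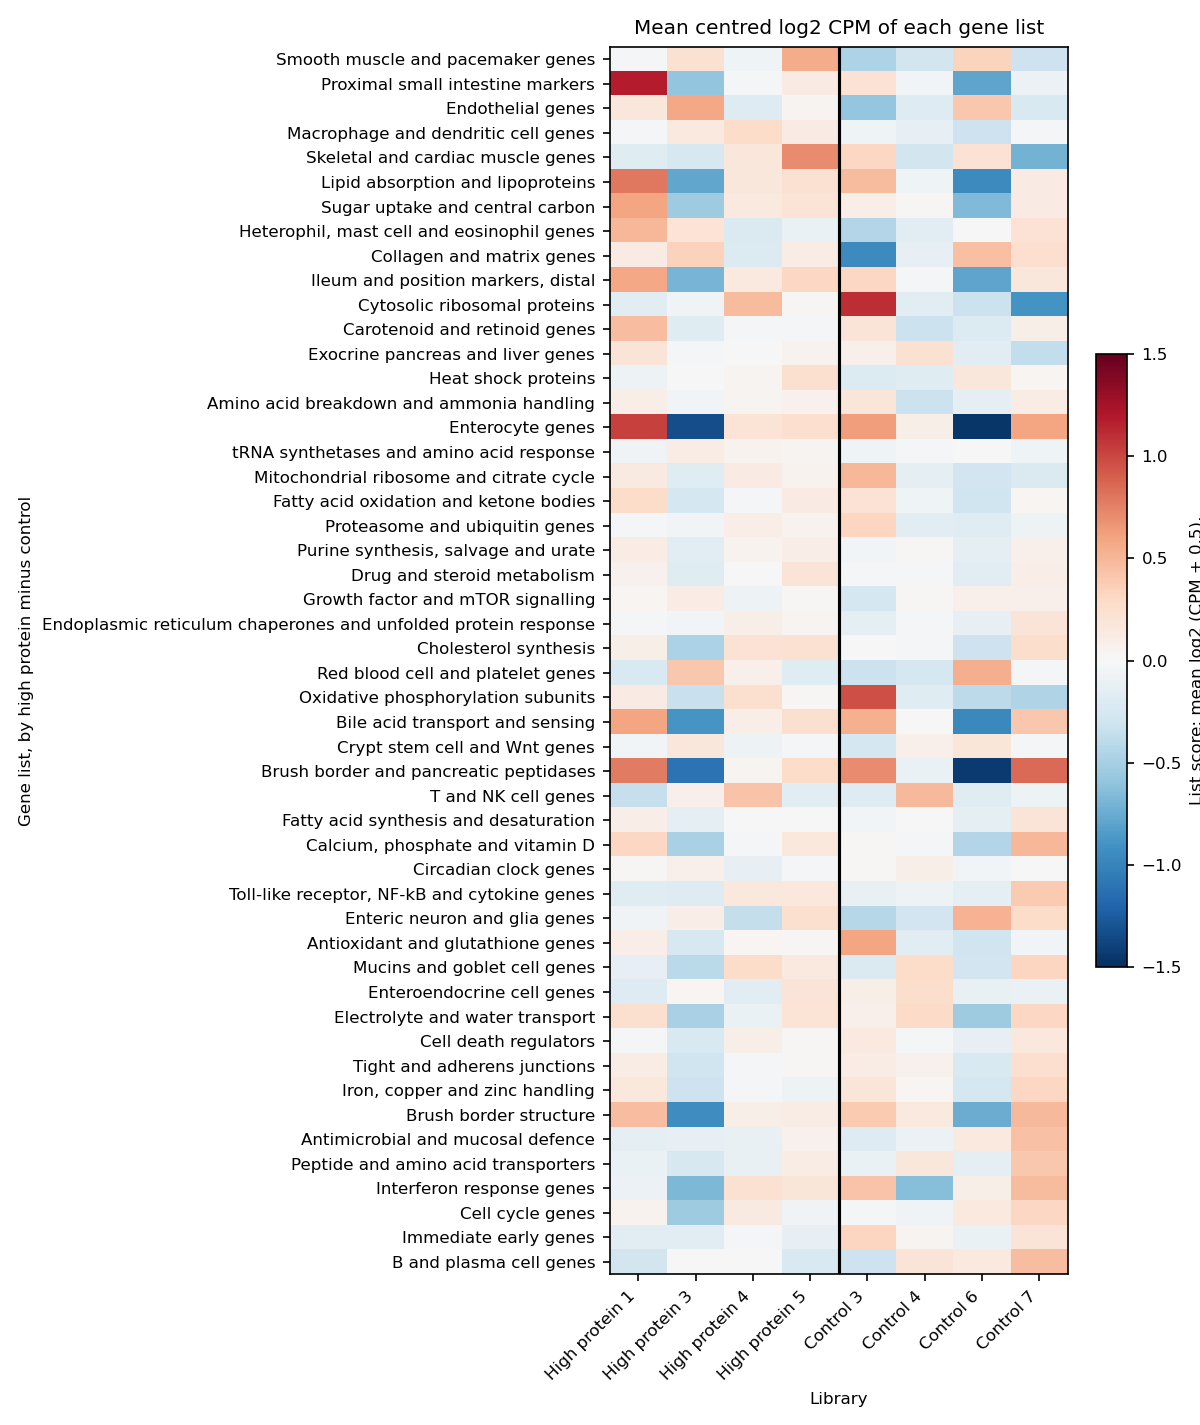
Score of each gene list (rows, ordered by high protein minus control) in each library (columns, high protein left of the line). Red is above and blue below the mean of the 8 libraries, in log2 units. High protein 3 and control 6 are blue over the absorptive lists, and high protein 1 is red for proximal markers, at 1.18.

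Of the B cell and antibody genes, PIGR and BLNK lay below control in every library. BLNK, an adaptor of the B cell receptor, measured 6.7, 6.43, 6.94 and 6.91 FPKM on the high protein diet, against 7.56, 7.21, 8.32 and 7.19 FPKM on the basal diet, without an unadjusted p under 0.05. PIGR, the receptor that carries polymeric antibodies across the epithelium, measured 140.3, 109.7, 53.2 and 78.4 FPKM in high protein libraries, against 151, 141, 211 and 284 FPKM in controls. The groups met at high protein 1 and control 4 without overlapping. The log2 fold change was -1.04 ± 0.35, and -0.81 without control 7, the highest library. PIGR spans 2118861 to 2133348 on the plus strand of scaffold NW_025927716.1. JCHAIN, the chain that joins antibodies into polymers, was at 140.2, 214, 164 and 104 FPKM on the high protein diet, against 132, 199.9, 207 and 239.8 FPKM on the basal diet, with overlap and a log2 fold change of -0.32 ± 0.24. BCL6, the repressor of germinal centre B cells, measured 10.8, 9.97, 11.8 and 9.58 FPKM in high protein libraries, against 14.9, 14.1, 11.8 and 18.6 FPKM in controls, with only high protein 4 at the level of control 6. Of 21 B and plasma cell genes tested, 6 had a positive log2 fold change. PIGR and BCL6 were among those at an unadjusted p under 0.05, which 3.17% of all genes had. The list median of -0.31 stayed between -0.36 and -0.16 with each library left out. The list's summed level ran from 326 to 455 FPKM on the high protein diet, against 452 to 703 FPKM on the basal diet. PIGR is made by epithelium and not by B cells, and BCL6 by many cells. Without PIGR the sum ran from 248 to 346 FPKM on the high protein diet, against 301 to 419 FPKM on the basal diet, with overlap. XBP1, PRDM1 and IRF4, factors of plasma cells, had log2 fold changes of 0.01 ± 0.17, 0.08 ± 0.24 and -0.09 ± 0.23.

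Control 7 stood out for inflammatory genes. NOS2, the inducible nitric oxide synthase, was at 1.2 to 10.8 FPKM on the high protein diet, against 117 FPKM in control 7 and 3.88 to 5.22 FPKM in the other controls. Without control 7 the log2 fold change of -2.54 ± 1.06 became 0.35. IL22RA2, the soluble decoy receptor for interleukin-22, measured 0.856, 0.916, 1.9 and 3.52 FPKM in high protein libraries, against 7.06, 3.42, 1.65 and 7.59 FPKM in controls, with controls 3 and 7 the highest. CFD, complement factor D, was the one antimicrobial and defence gene higher at an unadjusted p under 0.05, against 1.31% of all genes. It measured 1299, 2155, 1456 and 1169.8 FPKM on the high protein diet, against 849, 1078, 1263 and 716 FPKM on the basal diet. Its log2 fold change of 0.64 ± 0.24 was 0.42 without high protein 3. Of 18 genes of that list 6 were positive and the median was -0.24. Of 23 interferon response genes 22 were negative, while 46.2% of all genes were positive. The list median was -0.24, but 0 members reached an unadjusted p of 0.05. TAP2, a peptide transporter for antigen presentation, was the lowest at -0.61 ± 0.34. The interferon score was -0.09, -0.67, 0.23 and 0.18 in high protein libraries, against 0.43, -0.63, 0.08 and 0.47 in controls, so that high protein 3 and control 4 were low and the groups overlapped. The median came to -0.11 without high protein 3, and 0.07 with sample weights in limma's voom.

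Epithelial regulators were among the genes below control with no overlap. ELF5, an ETS factor of epithelia, measured 0.727, 2.03, 0.325 and 1.65 FPKM in high protein libraries, against 2.44, 7.93, 8.88 and 2.53 FPKM in controls. Controls 4 and 6 were far above controls 3 and 7, and the log2 fold change of -2.19 ± 0.61 was -1.84 without control 6. FOXD2, a forkhead factor, measured 2.47, 6.34, 4.47 and 5.69 FPKM on the high protein diet, against 14.3, 12.8, 6.72 and 7.81 FPKM on the basal diet, with high protein 1 the lowest. MAL2, a protein of apical transport, measured 7.28, 5.63, 7.81 and 6.85 FPKM in high protein libraries, against 22.8, 8.44, 8.26 and 12.4 FPKM in controls, and was carried by control 3. GALNT3, which starts mucin-type glycosylation, had a log2 fold change of -0.88 ± 0.25 at low level, with 0.577, 1.03, 0.935 and 1.43 FPKM in high protein libraries, against 1.84, 2.05, 1.57 and 1.85 FPKM in controls. CAPN5, a calpain protease, was at 2.13, 2.9, 2.54 and 3.06 FPKM on the high protein diet, against 3.92, 4.36, 3.63 and 4.33 FPKM on the basal diet. CP, the ferroxidase ceruloplasmin, was at 9.88, 10.6, 7.25 and 9.5 FPKM in high protein libraries, against 16.6, 12.7, 14.1 and 22.3 FPKM in controls. CLDN1, a tight junction claudin, was highest in control 7, at 27.1 FPKM, and its log2 fold change of -0.77 ± 0.26 was -0.49 without that library. AQP3, a basolateral channel for water and glycerol, also had its highest value there, with -0.69 ± 0.32 and, without control 7, -0.38. The groups overlapped for both CLDN1 and AQP3, and the lowest library for AQP3 was control 4, at 5.41 FPKM.

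Immediate early genes, which signals switch on within minutes, had 6 of 33 positive values and a median of -0.23, between -0.29 and -0.16 with each library left out. SIK1, a salt-inducible kinase of this class, measured 10.9, 8.76, 8.63 and 8.81 FPKM in high protein libraries, against 17.7, 13.8, 11 and 16.9 FPKM in controls. High protein 3, 4 and 5 were nearly equal, high protein 1 lay just below control 6, and the log2 fold change was -0.68 ± 0.15. JUN, a subunit of the factor AP-1, measured 61.4, 66.3, 69.3 and 75.2 FPKM on the high protein diet, against 93.2, 82, 73 and 104 FPKM on the basal diet. High protein 5 passed control 6 and the log2 fold change was -0.37 ± 0.17. FOS and EGR1 had -0.72 ± 0.47 and -0.58 ± 0.50, and neither reached an unadjusted p of 0.05. EGR1, another factor of this class, did not overlap, at 15.8, 15.2, 18.3 and 16 FPKM on the high protein diet, against 18.3, 22, 35.8 and 21.4 FPKM on the basal diet, with high protein 4 and control 3 level, while FOS did.

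Cell cycle genes lay mostly slightly below control. Of 68 tested, 7 had a positive log2 fold change, against 46.2% of all genes, yet 0 reached an unadjusted p of 0.05. The list median was -0.21. It moved to -0.07 without high protein 3, whose score of -0.53 was the lowest of the 8, and to -0.11 without control 7. MKI67, the proliferation antigen, measured 14.7, 7.22, 12.3 and 8.39 FPKM in high protein libraries, against 10.6, 9.83, 16.5 and 14 FPKM in controls, and TOP2A, a topoisomerase of dividing cells, 14.4, 7.77, 13.3 and 12.4 FPKM on the high protein diet, against 7.47, 13.9, 16 and 18.3 FPKM on the basal diet. LGR5, the crypt stem cell receptor, had a log2 fold change of 0.11 ± 0.29. Outside that list, POLA2, the accessory subunit of DNA polymerase alpha, did not overlap, at 2.43, 2.36, 2.77 and 2.54 FPKM in high protein libraries, against 4.48, 2.95, 4.45 and 4.05 FPKM in controls, and NCAPD2, a condensin subunit, did not either, at 11.4, 7.87, 10.7 and 10.7 FPKM on the high protein diet, against 11.9, 12, 11.9 and 14.4 FPKM on the basal diet. High protein 3 carried NCAPD2, whose log2 fold change of -0.30 ± 0.13 was -0.20 without it.

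Genes of RNA and ribosome assembly were found on both sides. GNL2, a nucleolar GTPase of ribosome assembly, measured 42.1, 52.7, 42.2 and 45.3 FPKM in high protein libraries, against 40.4, 35.9, 29.1 and 27.2 FPKM in controls, a log2 fold change of 0.46 ± 0.14. AATF, a nucleolar factor that binds RNA polymerase subunits, was higher without overlap, at 9.72, 12.2, 8.67 and 9.41 FPKM on the high protein diet, against 5.61, 7.28, 6.24 and 7.57 FPKM on the basal diet, and so was GEMIN7, of the complex that builds splicing particles, at 8.71, 12, 21.3 and 13.7 FPKM in high protein libraries, against 7.88, 2.33, 7.01 and 6.51 FPKM in controls. TCEA1, a transcription elongation factor, was lower without overlap, at 6.24, 6.45, 7.27 and 6.67 FPKM on the high protein diet, against 11.9, 7.78, 12.9 and 8.61 FPKM on the basal diet, and LCMT2, which modifies transfer RNA, was carried by control 6, with -0.71 ± 0.20 and -0.44 without it. The 71 ribosomal protein genes had a median of -0.05, which was 0.54 without control 3, -0.25 without control 7 and 0.15 in the FPKM as deposited with limma. Their summed level was 95326, 100411, 154282 and 106444 FPKM in high protein libraries, against 227436, 93385, 86142 and 56065 FPKM in controls. Control 3 was the highest and control 7 the lowest of the 8, and the high protein libraries lay between them.

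Oxidative phosphorylation subunits had the same dependence. The median over 62 genes was -0.10, 0.41 without control 3, -0.24 without control 7 and 0.04 in the deposited FPKM. NDUFV3, a subunit of complex I, was the only member with an unadjusted p under 0.05, which 3.17% of all genes had. It measured 18.7, 16.4, 21.8 and 20.7 FPKM in high protein libraries, against 41.9, 25.7, 22.1 and 22.3 FPKM in controls, and without control 3 its log2 fold change of -0.53 ± 0.22 was -0.27. PDK4, the kinase that shuts pyruvate out of the citrate cycle, measured 47.7, 93.5, 43.5 and 119.5 FPKM on the high protein diet, against 42.1, 35.7, 45 and 31.1 FPKM on the basal diet. High protein 3 and 5 were far above all controls and high protein 1 narrowly so, while high protein 4 lay below control 6. The log2 fold change was 0.98 ± 0.33. BNIP3, a mitochondrial protein of mitophagy and low oxygen, did not overlap, at 72.4, 69.2, 71.3 and 69.2 FPKM in high protein libraries, against 66.7, 56.3, 55.7 and 53.9 FPKM in controls. NDRG1, a stress and low-oxygen gene, did not either, with a log2 fold change of 0.48 ± 0.16. TXNRD1, a thioredoxin reductase, had a log2 fold change of -0.58 ± 0.22, with 21.2, 17.4, 27.3 and 19.6 FPKM on the high protein diet, against 42.8, 24.6, 23.8 and 36.5 FPKM on the basal diet. SOD3, the extracellular superoxide dismutase, measured 13.7, 14.2, 13.3 and 15.3 FPKM in high protein libraries, against 26.5, 11.6, 21.6 and 34.7 FPKM in controls, and its lowest library was control 4.

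Of 4 fat cell genes chosen after values were seen, 3 were highest in control 3. PLIN1, the coat protein of fat droplets in adipocytes, measured 0.963, 0.624, 0.577 and 0.621 FPKM in high protein libraries, against 63.8, 0.303, 0.438 and 2.44 FPKM in controls. LPL, lipoprotein lipase, measured 2.89, 2.92, 2.16 and 2.34 FPKM on the high protein diet, against 20.2, 1.85, 3.26 and 3.79 FPKM on the basal diet. Without control 3 the log2 fold changes of -4.57 ± 1.39 and -1.49 ± 0.59 were -0.60 and -0.20. CIDEC, a protein of fat droplets, was also highest in control 3 but varied widely elsewhere, at 4.63, 0.999, 8.38 and 2.14 FPKM in high protein libraries, against 17.5, 1.88, 0.93 and 5.74 FPKM in controls, with a log2 fold change of -0.69 ± 0.82 that was 0.50 without control 3. ADIPOQ, adiponectin, did not share this, since control 3 had its lowest value, 26 FPKM, with the other libraries at 35 to 60.9 FPKM.

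Endocrine and nerve genes gave single cases. INSM1, a transcription factor of enteroendocrine cells, was higher without overlap, at 2.85, 2.81, 2.49 and 2.85 FPKM in high protein libraries, against 1.77, 2.48, 1.87 and 1.76 FPKM in controls, with high protein 4 and control 4 almost level. CHGA, the granin of endocrine granules, measured 147, 219, 135 and 200.3 FPKM on the high protein diet, against 88.6, 176, 109 and 143 FPKM on the basal diet, with overlap and a log2 fold change of 0.44 ± 0.23. Over 29 enteroendocrine genes 8 were positive and the median was -0.14. SLC6A2, the noradrenaline transporter of sympathetic fibres, measured 3.56, 5.25, 3.57 and 3.66 FPKM in high protein libraries, against 1.82, 3.27, 2.75 and 3.03 FPKM in controls, and CNTFR, a receptor subunit for a neurotrophic cytokine, 11.8, 11.6, 10.8 and 9.23 FPKM on the high protein diet, against 4.79, 8.48, 8.72 and 6.37 FPKM on the basal diet. Neither overlapped, and the median of 23 enteric neuron and glia genes was -0.10. SYT7, a calcium sensor of vesicle release, and RASD2, a small GTPase, did not overlap either, with log2 fold changes of 0.57 ± 0.19 and 0.73 ± 0.20.

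Drug and steroid enzymes gave 1 higher and 1 lower gene of 14 at an unadjusted p under 0.05, against 3.17% of all genes. EPHX1, the microsomal epoxide hydrolase, measured 13.6, 20.4, 16.2 and 21.2 FPKM in high protein libraries, against 11.9, 8.05, 12.8 and 12.9 FPKM in controls, with no overlap and a log2 fold change of 0.64 ± 0.19. HSD17B2, which inactivates sex steroids, measured 5.35, 2.42, 6.97 and 9.18 FPKM on the high protein diet, against 21.4, 13.1, 4.66 and 9.63 FPKM on the basal diet, and was carried by control 3. VIL1, the actin bundling protein of microvilli, had a log2 fold change of 0.00 ± 0.45, MUC2, the gel mucin, -0.28 ± 0.59 and CFTR, the chloride channel, -0.34 ± 0.17. The groups overlapped for all 3.

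**Figure D5:**
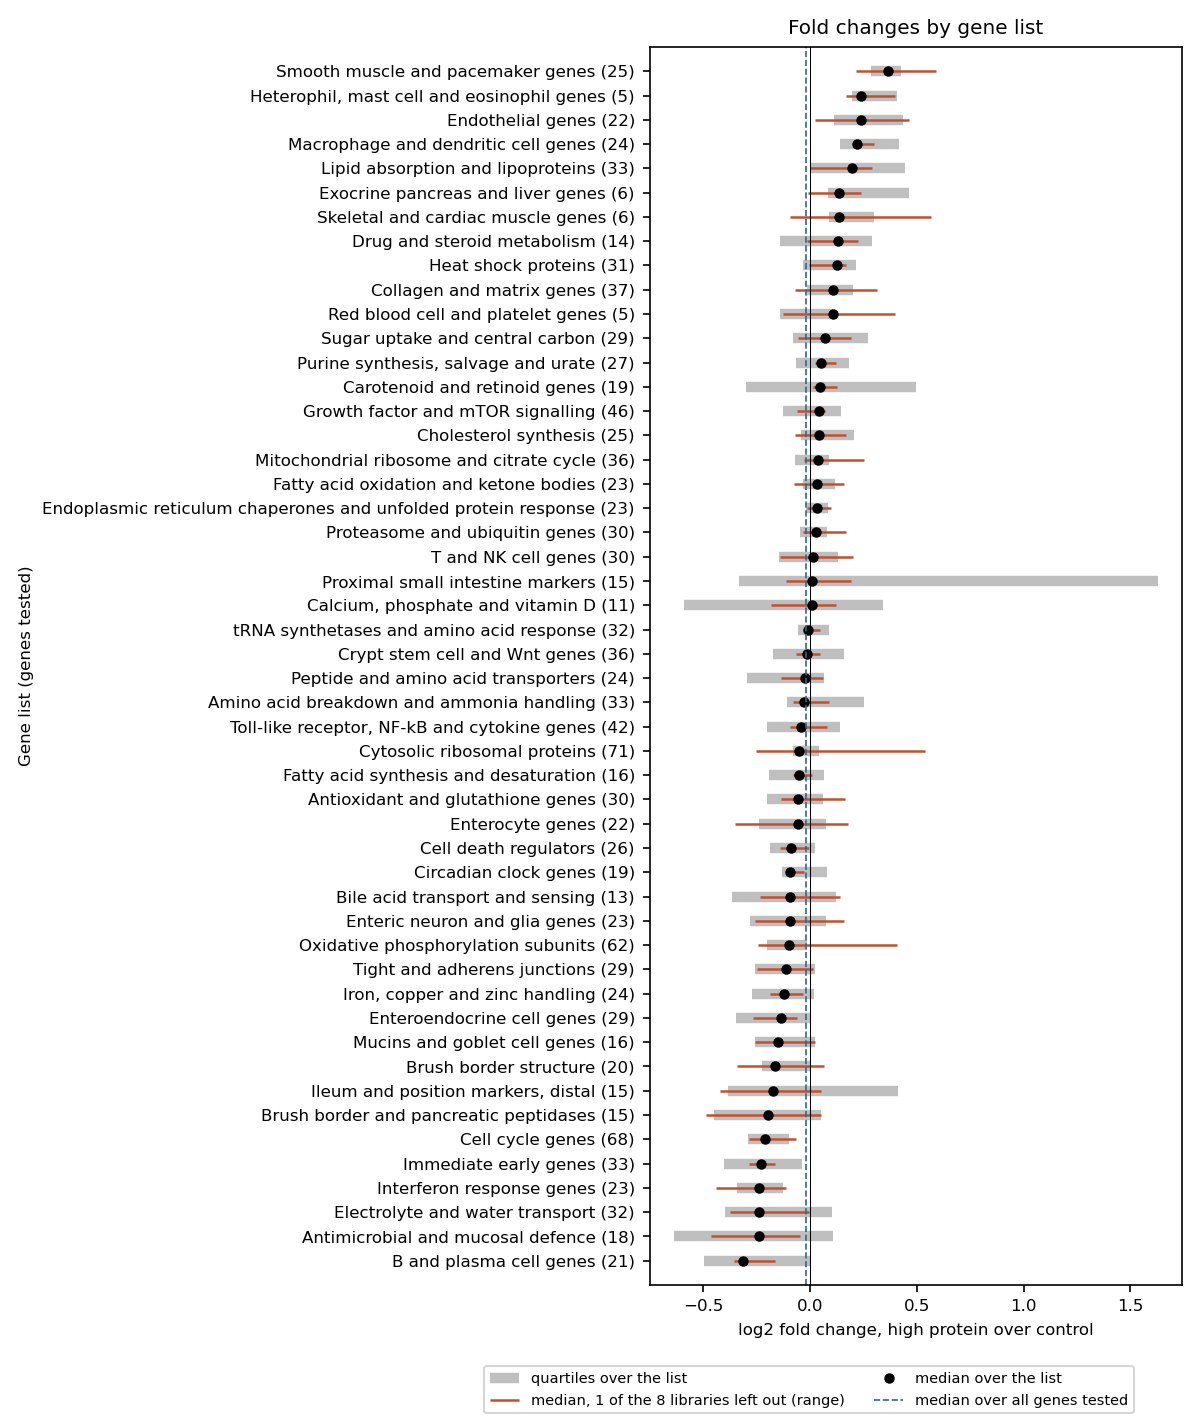
Median log2 fold change of each gene list (points), the quartiles of its members (grey bars) and the range of the median with each of the 8 libraries left out (red lines). The dashed line is the median over all genes, -0.02. Red lines of the ribosomal and oxidative phosphorylation lists reach 0.54 and 0.41.

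Across the 50 lists, the library scores of high protein and control overlapped for every list. The list median kept its sign with each of the 8 libraries left out for 16 of the 50.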

How the data were processed

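Poly(A) RNA of goose ileum was sequenced in 12 libraries, and the submitters' processing notes name DESeq2, edgeR, StringTie 2.1.6, HISAT2 2.2.1 and cutadapt 1.9 without a role or order. Build, annotation and strand handling were not given in the sources used here, so counts of close paralogs and of overlapping or antisense genes are uncertain. The authors deposited a raw count and an FPKM value per gene and library, per the file headers, for 19836 genes on 860 scaffolds. Counts of 4 occurred 5063 times, against 1799 of 3 and 1526 of 5, so about 4 counts seem to correspond to 1 read pair. The counting method was not given. If this holds, counting error is larger than the counts alone would give.

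The counts were tested with edgeR 4.0.16 in R 4.3.3 (quasi-likelihood, TMM, filterByExpr with a minimum count of 10, diet as the only term, 12 libraries, 9 residual degrees of freedom, two-sided). P-values were adjusted by Benjamini-Hochberg over 16075 genes, and the call threshold was 0.05. The design named counts as the first choice and FPKM with limma only without them. A standard error is the size of the log2 fold change over the root of its F value. The deposited FPKM were multiplied by a factor per library (0.896 to 1.30 in these 8) that puts them on the scale of the TMM-scaled CPM. A list score is the mean of log2(CPM + 0.5), centred over the 8 libraries. Groups came from sample titles.

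Symbols are those of the table. For 687 genes with a LOC name, the symbol comes from a RefSeq gene table of another goose assembly, where 17685 gene IDs matched and 2151 did not. That table also gave the Z-linked genes. Scaffold positions follow the deposited table.

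Named genes were those with a symbol, an unadjusted p under 0.05, no overlap and at least 1 FPKM in the higher group (10 of smallest p and 6 of largest fold per direction, the 10 leaving out 6 genes that an earlier account gave), up to 3 members per list with such a p, and 16 genes whatever their values. Of the genes this rule names, 2 are not reported here. Genes outside this rule, such as GAS6, P2RY13, GM2A, HPSE, PLBD2, C1QC, MAT1A, AZIN2, MAL2, GALNT3, NCAPD2, BNIP3, NDRG1, NDNF, VEGFD, SYT7, SLC6A2 and PLIN1, were chosen after their values were seen. The members and the 50 gene lists were chosen with earlier results of these data known. The alternatives were other scalings, filters, DESeq2 1.42.0, limma 3.58.1 on FPKM, sample weights, covariates, a replicate block and each library left out. The code was tested on simulated data.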

Additional observations from a re-analysis of the deposited data

Results flagged for a closer look

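In each diet's 4 libraries, a value was marked when the gap between the highest or lowest library and its nearest neighbour passed Dixon's 95% critical share of the group's range. Of 262 groups searched over named genes and list scores, 23 were marked, and chance marks about 1 in 20 of unselected groups. Many of the genes were chosen on their values in these same libraries, so the 23 cannot be read as an excess.

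High protein 1 was marked as the highest of its group for 10 genes. They were AQP8 at 72.5 FPKM (others 0.288 to 2.47), ENPP7 at 22.5 FPKM (others 0.0990 to 0.196), GATA4 at 4.21 FPKM (others 0 to 0.0718), LCT at 7.14 FPKM (others 0.162 to 0.608) and ONECUT2 at 0.894 FPKM (others 0 to 0.144). RBP2 was at 46.9 FPKM there (others 0.695 to 4.40), NPC1L1 at 7.99 FPKM, BCO1 at 18.1 FPKM and GLUL at 188 FPKM. The last was SIK1, at 10.9 FPKM.

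High protein 3 was low for RPS6KL1, a kinase-like protein, at 21.2 FPKM. High protein 4 was low for INSM1 at 2.49 FPKM. High protein 5 was high for AQP3 at 9.27 FPKM.

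Among the controls, control 3 was marked for RBP7 at 250.2 FPKM (others 0.455 to 4.07) and FABP6 at 3904 FPKM (others 578 to 862), and control 7 for NOS2 at 117 FPKM (others 3.88 to 5.22). Control 4 was marked for INSM1 at 2.48 FPKM. In 2 marked cases a gene was seen in 1 control and at 0 in the others: ENPP7 at 0.0223 FPKM in control 6 and ONECUT2 at 0.0173 FPKM in control 7.

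Of the list scores, antimicrobial and mucosal defence genes were high in high protein 5 (0.062). Sugar and central carbon genes were low in control 6 (-0.66), growth factor and mTOR genes low in control 3 (-0.27), and Toll-like receptor and cytokine genes high in control 7 (0.40).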

How the results depend on the processing

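The count of genes at an adjusted p under 0.05 was 0, and it was 8 with DESeq2 and 1 with upper quartile scaling, without a filter, and with limma on log2(FPKM + 1) or log2(FPKM + 0.1). Leaving out single libraries gave 0 to 1. The DESeq2 calls, 6 higher and 2 lower, were C1QA, EFR3B, ISX, LOC106029782, LOC106034215, LOC125183064, MAPRE3 and SCARB1. The single call was ISX without control 6 and LOC125183064 in every other case. LOC125183064 (scaffold NW_025927697.1, 4713963 to 4714251) had counts of 343, 140, 387 and 74 in high protein libraries, against 0 in each control, and an adjusted p of 0.0522 in edgeR. It lies beside RPS29 and a gene of the same span, LOC106046962, with 3155, 6483, 6275 and 7848 counts in high protein libraries, against 16111, 7268, 6419 and 3693 in controls. Reads could be split between such copies, so its value is uncertain.

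The count at an unadjusted p under 0.05, 510, was 933 with sample weights in voom, 1010 with the enterocyte score as covariate and 414 to 1022 with single libraries left out, the highest without control 3 and next 892 without control 6. With only the 8 libraries of the 2 diets the count was 365, over 15670 genes tested. With a filter of 1 FPKM in 4 libraries it was 349, over 12259 genes tested. In the main test the higher share was 41.4%, and it became 57.7% without control 3 and 52.2% without control 6. Among alternatives added after the data were seen, leaving out high protein 1 with control 3 gave 1104 genes, 57.2% of them higher, high protein 3 with control 6 gave 611, and the Z-linked median as covariate 508. The cause was not tested.

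Replicate numbers 3 and 4 occur on both diets. Deviations of same-numbered libraries correlated at -0.18 and -0.16 between these diets, and at -0.28, 0.22, 0.23 and 0.24 in the 4 pairs with a lactulose library. Signs were mixed, with 3 of the 6 pairs negative, which cannot settle whether the numbers mark paired samples. The main test took no pairing. With the replicate block 0 genes passed and 654 had an unadjusted p under 0.05. High protein 1 and control 7 have numbers that no other library shares, so the block fits them exactly and they drop out of the contrast. It also leaves fewer residual degrees of freedom, so its counts and signs do not reflect pairing alone.

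Of 81 named genes, 70 kept their direction wherever they were tested, 65 of them in all 23 alternatives and 5 scarce ones in 20 to 22. Most of the 81 were picked for an unadjusted p under 0.05 in these same libraries, which favours a kept direction. Apart from NOS2 and RBP7, the genes that turned sign were all taken whatever their values. Log2 fold changes that turned sign under the block were -0.46 for ABCG2, -0.35 for FABP6, -0.33 for GLUL, 0.32 for MUC2, 0.037 for NOS2, -0.83 for SLC15A1 and -0.60 for VIL1. High protein 1 and control 7 drop out of the contrast under the block. With single libraries left out, the log2 fold changes ranged over -0.016 to 0.69 for ABCG2, -0.25 to 0.33 for GLUL, -0.21 to 0.32 for LGR5, -0.63 to 0.35 for MUC2, -3.07 to 0.35 for NOS2, -0.35 to 0.39 for SLC15A1, -0.23 to 0.17 for SLC2A9, -0.32 to 0.24 for VIL1 and -0.44 to 0.078 for XDH. The sign turned without high protein 1 for ABCG2, GLUL, SLC15A1 and VIL1, without high protein 3 for LGR5, SLC2A9 and XDH, without high protein 4 for SLC15A1, without control 3 for LGR5, without control 4 for GLUL and MUC2, without control 6 for GLUL, SLC15A1 and VIL1, and without control 7 for NOS2, SLC2A9 and XDH. With high protein 1 and control 3 out together, GLUL was -0.078, SLC15A1 -0.020 and VIL1 -0.21. With high protein 3 and control 6 out together, GLUL was -0.015, LGR5 -0.020 and SLC2A9 0.0035. Sample weights turned LGR5 to -0.12, RBP7 to 0.24 and SLC2A9 to 0.027, and limma on log2(FPKM + 0.1) turned MUC2 to 0.077. The enterocyte covariate, whose score includes VIL1, turned VIL1 to -0.069. VIL1, at 0.0023, was also -0.0026 with the 1 FPKM filter, -0.0033 with counts divided by 4, and -0.0044 and -0.0046 with limma on log2(FPKM + 1) and log2(FPKM + 0.1). Of 1150 list medians under alternatives, 12 moved by more than the standard deviation of the list's library scores within diets. That cut was wide for some lists, so the 12 do not measure stability. It was 0.63 for ribosomal proteins, whose move from -0.05 to 0.54 without control 3 was not counted.

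With 4 libraries a diet, a common biological coefficient of variation of 0.349 and seemingly about 4 counts to a read pair, depth was limited. Small differences and genes of a few counts could not be called.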

Other observations

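Further genes whose high protein and control libraries did not overlap were described after their values were seen. Most of the chromatin and transcription factors picked here were lower. Of all 166 genes with no overlap and an unadjusted p under 0.05, 97 were lower. JADE1, a subunit of a histone acetyltransferase complex, measured 8.68, 7.73, 8.28 and 7.17 FPKM in high protein libraries, against 10.2, 11.4, 10.1 and 11.4 FPKM in controls, a log2 fold change of -0.44 ± 0.13. KDM1B, a histone demethylase, measured 8.63, 10.1, 9.76 and 8.95 FPKM on the high protein diet, against 11.4, 12, 11.9 and 11.5 FPKM on the basal diet, and BCL7A, of the SWI/SNF remodeling complex, 4.41, 4.57, 4.52 and 4.15 FPKM in high protein libraries, against 5.07, 5.47, 5.44 and 4.6 FPKM in controls. The zinc finger genes ZBTB34, ZBTB6 and ZNF644 had log2 fold changes of -0.38 ± 0.14, -0.37 ± 0.14 and -0.20 ± 0.09. SUDS3, a subunit of the SIN3 corepressor complex, was higher, at 23.8, 23.7, 24.3 and 23.3 FPKM on the high protein diet, against 20.1, 18.3, 22.3 and 19.2 FPKM on the basal diet, and no library carried more than 33.3% of it. These genes were picked from the 166 with no overlap and an unadjusted p under 0.05, and no list of chromatin genes was examined.

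Genes of cilia and microtubules lay on both sides. ENKD1, a microtubule-binding protein, measured 2.58, 3.04, 2.81 and 1.97 FPKM in high protein libraries, against 1.51, 1.67, 1.32 and 1.16 FPKM in controls. TCTN2, of the ciliary transition zone, measured 11.7, 14.4, 11.8 and 12.9 FPKM on the high protein diet, against 9.52, 9.9, 11.4 and 9.99 FPKM on the basal diet. WDR31, a ciliary WD repeat protein, was lower, at 4.87, 4.98, 5.68 and 5.15 FPKM in high protein libraries, against 8.23, 7.96, 6.07 and 6.18 FPKM in controls, and its log2 fold change of -0.46 ± 0.13 was -0.38 without control 3. RPS6KL1, a kinase-like protein, was lower at 27.5, 21.2, 27.4 and 26.7 FPKM on the high protein diet, against 41.7, 32.5, 30.3 and 39.2 FPKM on the basal diet, and high protein 3 was the lowest library. The extracellular protease ADAMTS13, which trims von Willebrand factor, was higher at 2.45, 3.07, 2.31 and 2.37 FPKM in high protein libraries, against 1.35, 2.29, 2.1 and 1.6 FPKM in controls, with high protein 4 and control 4 almost level.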
